A study of Mus musculus with 18 samples.

Results

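Vasoactive peptide and nitric oxide genes were followed in the descending aorta of 18 male C57BL/6 mice. The 10 genes are Nos3, Edn1, Ednra, Ednrb, Ece1, Agt, Agtr1a, Ace, Npr1 and Npr3, found by matching the Ensembl identifiers of the 54281 rows of the count table to gene symbols. HGPS mice carried the LMNAG609G genotype, a knock-in model of Hutchinson–Gilford Progeria Syndrome in which every cell bears the mutant lamin gene, and were labelled as 64 to 75 d old (n = 6). Wild-type (WT) mice were young, at 62 d with 1 mouse of 95 d (2-mo WT, n = 6), or old, at 609 to 762 d (24-mo WT, n = 6). There were no 24-mo HGPS mice, so that HGPS against 24-mo WT mixes genotype with age. The aortas kept intima, media and adventitia, and total RNA was sequenced after removal of ribosomal RNA.

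The tone of an artery is set by signals that pass between its endothelium and its smooth muscle cells. Endothelin-1 is cut from a precursor by endothelin-converting enzyme and contracts smooth muscle through the ETA receptor, while endothelial ETB receptors release nitric oxide and clear the peptide. Angiotensin-converting enzyme makes the constrictor angiotensin II from a product of angiotensinogen, and natriuretic peptides and nitric oxide oppose both by raising cGMP, the former through the receptor cyclase NPR-A and the latter through soluble guanylate cyclase.

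Library totals ran from 12413229 to 30844775 counts, and 15210 of the 54281 genes had 10 or more counts in 6 or more mice and were tested. All 10 members passed this filter, 9 of them with at least 10 counts in all 18 mice. Agt passed through 5 HGPS mice and 1 24-mo WT mouse and no 2-mo WT mouse, so its group difference helped it to be tested. The defining markers of an artery were present in every aorta. The smooth muscle myosin Myh11 was at 3411 CPM or more and the endothelial marker Pecam1 at 166 CPM or more. CPM is the gene's count scaled to the library total after TMM normalization. Group differences are log2 fold changes with their standard error (SE) from edgeR's quasi-likelihood test, with p-values adjusted over all genes tested, and a gene is called at an adjusted p below 0.05. In whole tissue, fewer cells of a type and less RNA per cell cannot be told apart.

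Both peptide systems start from a precursor whose RNA holds the hormone in a single exon, shown here because Edn1 and Agt are the 2 ligand genes among the members. In GRCm38 the 21 codons of mature endothelin-1 lie in exon 2 of Edn1 (chr13:42303649-42303711, plus strand). The 10 codons of angiotensin I lie in exon 2 of Agt (chr8:124564450-124564479, minus strand). Both are taken from the GENCODE M21 transcripts, 5′ to 3′. Capitals mark the 4 codons of the cysteines that pair into the disulfide bridges of endothelin-1, and the 8 codons of angiotensin II. In angiotensin I, lower case marks the codons of the residues that ACE removes from the peptide.
Endothelin-1: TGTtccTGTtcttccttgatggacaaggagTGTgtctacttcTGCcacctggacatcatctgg
Angiotensin I: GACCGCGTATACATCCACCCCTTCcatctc

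RefSeq promoters were given for 8 of the 10 members, and those of Edn1 and Npr1 are printed because the former was lowest in old and the latter in HGPS aortas. Each is the 250 bases before the transcript start in GRCm38.p6, at chr13:42301226-42301475 on the plus strand and chr3:90465867-90466116 on the minus strand. Capitals mark matches on either strand to any of 5 motifs, for which 32851 promoters were also searched in windows of the same length. The TATA box (TATAAA) was found in 12.4% of them and the AP-1 motif (TGANTCA) in 6.75%. The GATA motif (GATAA) was found in 22.6%, the GC box (GGGCGG) in 32.7%, and the CCAAT box in 33.8%.
Edn1 promoter: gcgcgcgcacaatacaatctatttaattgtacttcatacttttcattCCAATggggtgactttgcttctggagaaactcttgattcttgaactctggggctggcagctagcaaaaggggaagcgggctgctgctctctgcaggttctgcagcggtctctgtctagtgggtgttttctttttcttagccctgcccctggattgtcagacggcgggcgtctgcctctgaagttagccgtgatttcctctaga
Npr1 promoter: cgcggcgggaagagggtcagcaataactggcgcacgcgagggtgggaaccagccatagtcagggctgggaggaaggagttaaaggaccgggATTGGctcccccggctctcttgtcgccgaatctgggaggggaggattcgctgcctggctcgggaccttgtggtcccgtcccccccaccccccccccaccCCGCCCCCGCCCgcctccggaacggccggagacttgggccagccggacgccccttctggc
The Edn1 window held 1 match, a CCAAT starting 203 bases before the transcript start. The Npr1 window held 1 CCAAT on the opposite strand, starting 159 bases before the transcript start, and 2 adjacent GC boxes on that strand, at 60 and 54 bases. The letters of the other motifs are not in these windows.

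Levels between genes were compared per kilobase of the exon union. In 2-mo WT aortas Ace was at 90.0 ± 15.2 (SD, n = 6) CPM per kb, Npr1 at 70.2 ± 5.02, and Ece1 at 36.0 ± 7.17. Edn1 followed at 11.6 ± 3.17, Nos3 at 9.25 ± 2.49 and Npr3 at 3.80 ± 0.224. Ednrb stood at 2.08 ± 0.723, Ednra at 1.39 ± 0.223, Agtr1a at 1.04 ± 0.309 and Agt at 0.117 ± 0.0730 CPM per kb. The peptidases and the cyclase receptor thus led, and the endothelin and angiotensin receptors and the angiotensin precursor were lowest. The neighbours Ace and Npr1, Edn1 and Nos3, Ednrb and Ednra, and Ednra and Agtr1a had overlapping values over the 6 mice. In HGPS aortas Npr1 fell to 42.2 ± 4.02 CPM per kb and overlapped with Ece1 at 36.0 ± 1.85, while Ednrb, at 3.78 ± 0.824, stood above Npr3, at 3.09 ± 0.697, with overlap. In 24-mo WT aortas Edn1, at 5.34 ± 2.52 CPM per kb, ranked below Nos3 at 9.03 ± 4.65, again with overlap. With the length of the longest transcript in place of the exon union, Ednra rose to 2.10 CPM per kb in 2-mo WT aortas.

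**Figure D1:**
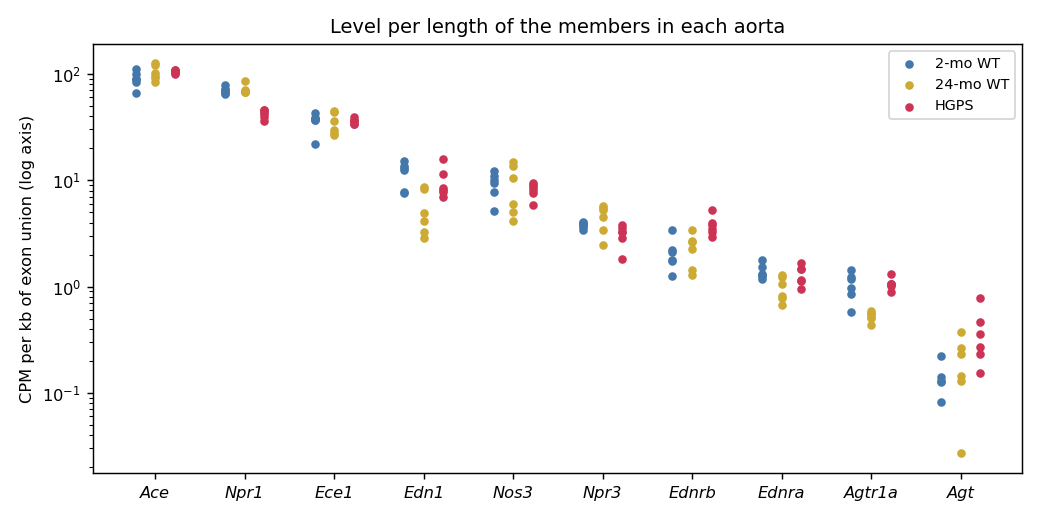
CPM per kilobase of exon union of the 10 genes on a log axis, with 1 point per mouse and 3 groups side by side. Ace, Npr1 and Ece1 form the upper end and Agt the lower end, and 1 2-mo WT mouse without an Agt count is not drawn.

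Young HGPS and 2-mo WT aortas were compared to ask what the mutation does at a like age. Npr1 fell, and Ednrb and Agt rose. These 3 calls among 10 members stand beside 43.2% of all genes tested, and without Agt, which the filter favoured, 2 of 9 members were called. At a 1.5-fold change with an adjusted p below 0.001, only Npr1 of the 10 members passed by edgeR, beside 9.50% of all genes. By DESeq2 Ednrb passed this threshold as well (log2 fold change 0.86, DESeq2 adjusted p = 0.000996), among 1923 genes in all. Npr1 was the only member whose CPM did not overlap between the groups, beside 21.9% of all genes. Their median log2 fold change was -0.05, and that of all genes tested 0.00.

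For natural aging, 24-mo WT aortas were set against the same 2-mo WT aortas. Edn1 and Agtr1a fell, and none of the members rose. These 2 calls among 10 stand beside 11.7% of all genes tested. By edgeR no member passed the 1.5-fold change with an adjusted p below 0.001, beside 2.00% of all genes. By DESeq2 Agtr1a passed it (log2 fold change -0.99, DESeq2 adjusted p = 0.000159), among 481 genes in all. At an adjusted p below 0.05, 2 of 10 members passed by edgeR and 3 by DESeq2. No member was separated between the groups in CPM, beside 6.28% of all genes.

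HGPS against 24-mo WT is the direct test of whether the other two differences are unequal. Edn1, Ednrb and Agtr1a were higher and Npr1 and Npr3 lower in HGPS, so that 5 of 10 members were called, beside 47.3% of all genes. Npr1 and Agtr1a passed the 1.5-fold change with an adjusted p below 0.001, beside 12.1% of all genes, and the same 2 genes did not overlap between the groups, beside 22.2%. The first and second comparisons share their controls, and no relation between them was computed.

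**Figure D2:**
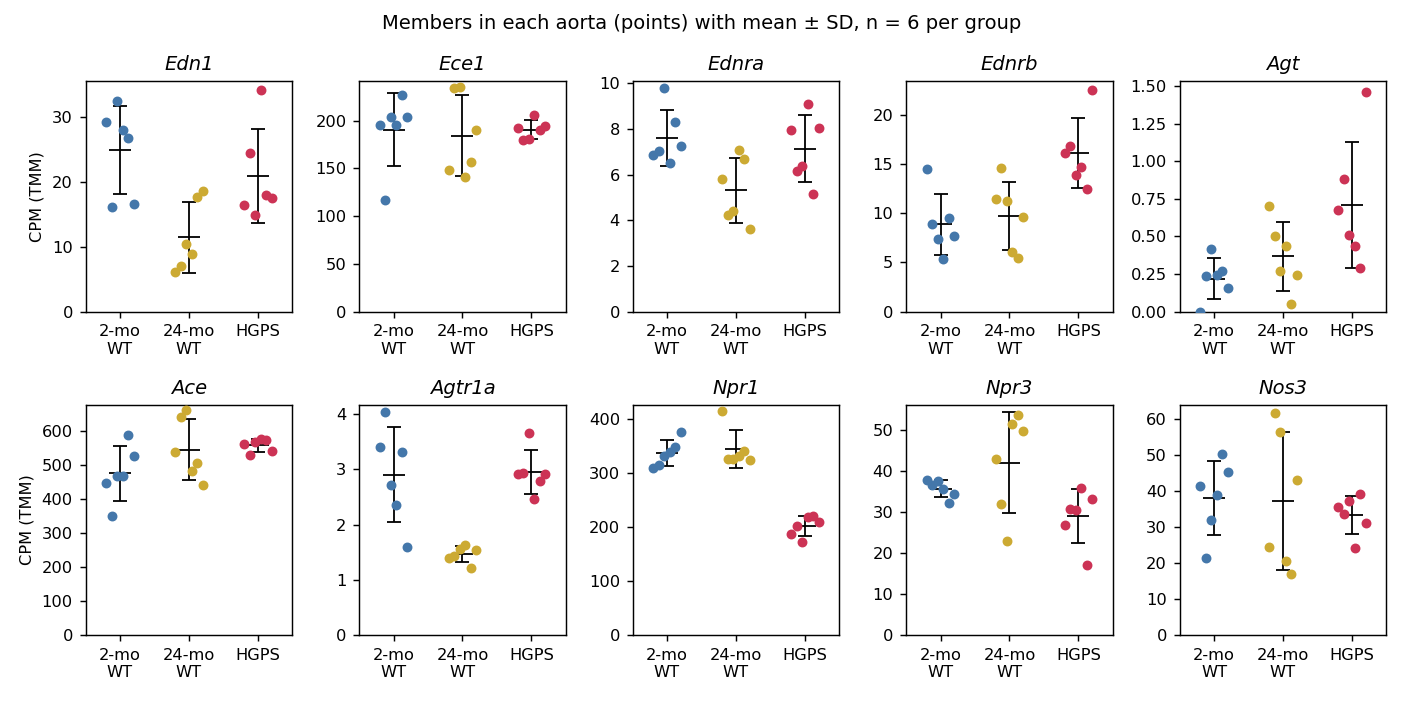
TMM-scaled CPM of each gene on linear axes from 0, with 1 point per mouse and bars for mean ± SD of 6 mice per group. The Npr1 points of HGPS (172 to 220.5 CPM) lie below all WT points, and the Agtr1a points of 24-mo WT (1.22 to 1.64 CPM) lie below all HGPS points.

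**Figure D3:**
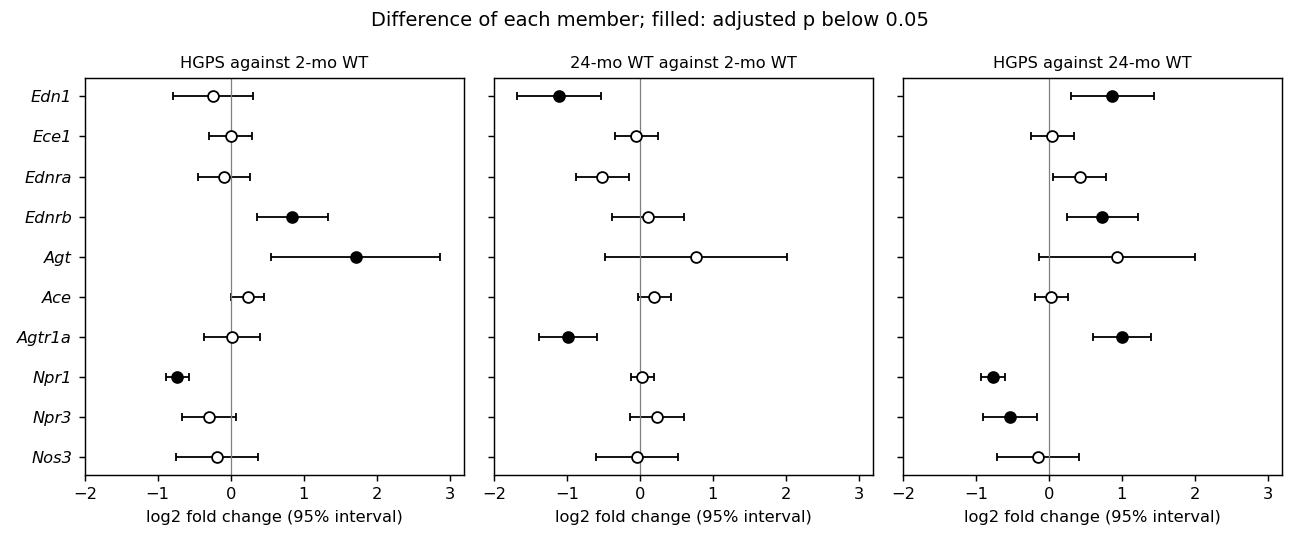
log2 fold change of each gene with its 95% interval in the 3 comparisons. Filled points passed an adjusted p of 0.05, and Npr1 has the narrowest interval (-0.89 to -0.58 for HGPS against 2-mo WT).

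Among the natriuretic peptide receptors, Npr1 encodes NPR-A, the receptor cyclase for the atrial and B-type peptides. Npr1 ranged from 172 to 220.5 CPM around a median of 206 in HGPS, from 309 to 375 around 335 in 2-mo WT, and from 323 to 414 around 329 in 24-mo WT. Every HGPS aorta was thus below every WT aorta, and both WT groups overlapped. Npr1 fell by 39.9% in HGPS against 2-mo WT (log2 fold change -0.73, SE 0.08, edgeR adjusted p = 8.03e-07). Against 24-mo WT it fell by 0.77 (SE 0.08, edgeR adjusted p = 2.24e-07). Between the ages of WT mice its log2 fold change was 0.03, with a 95% interval of -0.13 to 0.19. The smooth muscle markers moved in the same direction as Npr1, with 7 of 9 lower and none higher in HGPS than in 2-mo WT. Their mean log2 CPM was 10.04 to 10.42 in HGPS, 10.59 to 10.89 in 2-mo WT and 10.72 to 11.00 in 24-mo WT, and none of them was at 0 in all mice. With this score as a covariate the Npr1 difference was -0.27 (edgeR adjusted p = 0.593), but the score does not overlap between HGPS and WT, and only 34 of the 15210 genes were then called. Genotype and smooth muscle score cannot be told apart in these groups. With the brown and white fat scores as covariates, Npr1 was lower by 0.69 than in 2-mo WT (edgeR adjusted p = 0.000417). These fat scores overlap between HGPS and 2-mo WT only through 2-mo WT mouse 1.

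Npr3 encodes the clearance receptor NPR-C, which removes natriuretic peptides. Npr3 ranged from 17.1 to 35.7 CPM around a median of 30.6 in HGPS, from 32.2 to 37.9 around 36.0 in 2-mo WT, and from 22.9 to 53.5 around 46.2 in 24-mo WT. The 2-mo WT aortas were tightly grouped, 4 of the 6 HGPS aortas lay below all of them, and the old aortas spread to both sides. The log2 fold change was -0.30 for HGPS against 2-mo WT (95% interval -0.67 to 0.07, edgeR adjusted p = 0.187) and 0.24 for 24-mo against 2-mo WT (-0.13 to 0.61, edgeR adjusted p = 0.441). Npr3 was lower by 0.54 in HGPS than in 24-mo WT (SE 0.18, edgeR adjusted p = 0.0178). This call was lost with the fat scores as covariates (-0.45, edgeR adjusted p = 0.144) and with the endothelium score (-0.43, edgeR adjusted p = 0.0744). The brown fat score does not overlap between HGPS and 24-mo WT, so that group and score cannot be told apart in the former fit.

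Npr2, the receptor cyclase for the C-type peptide and no member, also fell in HGPS, by 0.42 against 2-mo WT (edgeR adjusted p = 0.00171) and by 0.63 against 24-mo WT (edgeR adjusted p = 2.58e-05). Of the peptides themselves, Nppb, the B-type peptide gene, had 235 counts over the 6 HGPS aortas, 11 or more in each, and 0 in all 12 WT aortas. Its mean of 1.72 CPM in HGPS was at least 59.4-fold higher than in 2-mo WT, taking 3 counts over the group as the floor. Nppb passed the filter only through HGPS mice. Nppa had 8 counts in HGPS and 0 in WT aortas, and Nppc 1, 2 and 2 counts in HGPS, 2-mo WT and 24-mo WT; neither was tested. The mean log2 CPM of the cardiac muscle markers Myh6, Myl7, Myl4 and Tnni3 was higher by 0.95 in HGPS than in 2-mo WT, within the spread of the mice (exact permutation test, adjusted p = 0.249), and 2 of the 4 were called higher. Their part in the Nppb counts was not tested.

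In the endothelin system, Edn1 encodes the constrictor peptide precursor. Edn1 ranged from 14.8 to 34.1 CPM around a median of 17.7 in HGPS, from 16.2 to 32.3 around 27.3 in 2-mo WT, and from 6.09 to 18.6 around 9.65 in 24-mo WT. The old aortas were low, with 4 of 6 below all young aortas, and the HGPS and 2-mo WT ranges overlapped almost fully. Edn1 fell by 53.7% in 24-mo against 2-mo WT (log2 fold change -1.11, SE 0.27, edgeR adjusted p = 0.0111). It did not pass the test in HGPS against 2-mo WT (-0.24, 95% interval -0.80 to 0.31, edgeR adjusted p = 0.490). Edn1 was higher by 0.87 in HGPS than in 24-mo WT (SE 0.27, edgeR adjusted p = 0.0133). The endothelium score was lower by 0.11 in old than in young WT and did not pass the test (exact permutation test, adjusted p = 0.683). With this score as a covariate Edn1 was lower by 1.05 in 24-mo WT (edgeR adjusted p = 0.0182). Fibroblast markers fell with age as well, with 4 of 8 called lower and none higher. Their mean log2 CPM was 7.41 to 7.69 in 24-mo WT and 7.85 to 7.97 in 2-mo WT (difference -0.40, exact permutation test, adjusted p = 0.00938), and none of them was at 0 in all mice. In HGPS against 2-mo WT, 5 of the 8 were called lower and none higher (difference -0.41, exact permutation test, adjusted p = 0.00938). By the median of the markers that difference was -0.14 (exact permutation test, adjusted p = 0.310). The part of the fibroblast markers in the fall of Edn1 was not tested.

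Ece1 encodes the membrane protease that releases endothelin-1. Ece1 ranged from 179.8 to 206 CPM around a median of 191 in HGPS, from 117 to 227 around 199.9 in 2-mo WT, and from 141 to 236 around 173 in 24-mo WT. The ranges overlapped, and the HGPS aortas were the most alike (SD 9.78 CPM, against 38.0 and 42.5). Its log2 fold changes were -0.00 for HGPS and -0.05 for 24-mo WT against 2-mo WT, with 95% intervals of -0.30 to 0.30 and -0.35 to 0.25.

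Ednra encodes the ETA receptor of smooth muscle. Ednra ranged from 5.14 to 9.09 CPM around a median of 7.16 in HGPS, from 6.49 to 9.78 around 7.14 in 2-mo WT, and from 3.64 to 7.09 around 5.11 in 24-mo WT. The HGPS and 2-mo WT medians were close, and the old aortas were lower with overlap. The log2 fold change was -0.09 for HGPS against 2-mo WT (95% interval -0.45 to 0.26). For 24-mo against 2-mo WT it was -0.51 (SE 0.17, edgeR adjusted p = 0.0613), and DESeq2 called it at an adjusted p of 0.0352. For HGPS against 24-mo WT it was 0.42 (SE 0.17, edgeR adjusted p = 0.0511), and DESeq2 called it at an adjusted p of 0.0377. Both values thus stood at the edge of the threshold.

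Ednrb encodes the ETB receptor. Ednrb ranged from 12.5 to 22.5 CPM around a median of 15.4 in HGPS, from 5.35 to 14.5 around 8.29 in 2-mo WT, and from 5.45 to 14.6 around 10.4 in 24-mo WT. The HGPS aortas were high, and a single mouse of each WT group reached into their range. Ednrb rose by 0.84 in HGPS against 2-mo WT (SE 0.23, edgeR adjusted p = 0.00635), a 1.80-fold level, and was higher by 0.73 than in 24-mo WT (SE 0.23, edgeR adjusted p = 0.0135). In 24-mo against 2-mo WT its log2 fold change was 0.11 (95% interval -0.38 to 0.61). Markers of fat and of macrophages rose with it, since 8 of 8 brown fat, 7 of 8 white fat and 8 of 8 macrophage markers were called higher in HGPS than in 2-mo WT. The brown fat score was 4.42 to 6.60 in HGPS, 1.01 to 4.86 in 2-mo WT and 2.46 to 4.37 in 24-mo WT. The white fat score was 5.62 to 7.26, 4.06 to 6.14 and 4.15 to 6.37, and the macrophage score 6.30 to 6.98, 5.41 to 5.97 and 5.32 to 6.30 in the same order. No marker of these lists was at 0 in all mice. With both fat scores as covariates the Ednrb difference was 0.35 against 2-mo WT (edgeR adjusted p = 0.409) and 0.13 against 24-mo WT (edgeR adjusted p = 0.797), so that the call was lost. The brown fat score does not overlap between HGPS and 24-mo WT, so that group and score cannot be told apart in that comparison. Against 2-mo WT, both fat scores overlap with HGPS only through 2-mo WT mouse 1 (4.86 and 6.14). This mouse also had the highest Ednrb of its group, so that group and score are hardly separable there as well. The part of macrophages was not tested.

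Of the other endothelin genes, Edn3 was low, with 52 to 196 counts per group. Edn3 fell by 1.92 in 24-mo against 2-mo WT (SE 0.30, edgeR adjusted p = 0.000189) and by 0.92 in HGPS against 2-mo WT (SE 0.27, edgeR adjusted p = 0.00999). Edn2 had 1, 1 and 2 counts in HGPS, 2-mo WT and 24-mo WT and was not tested.

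In the renin-angiotensin system, Agt encodes angiotensinogen, which is made mainly by the liver. Agt had 7 to 29 counts per HGPS aorta, 0 to 6 per 2-mo WT aorta and 1 to 12 per 24-mo WT aorta, corresponding to medians of 0.592, 0.240 and 0.353 CPM. The HGPS values were high but overlapped with both WT groups. Agt rose by 1.71 in HGPS against 2-mo WT (SE 0.55, edgeR adjusted p = 0.0175), with a wide 95% interval of 0.55 to 2.86. Against 24-mo WT the difference was 0.94 (95% interval -0.13 to 2.01, edgeR adjusted p = 0.139). The fat markers given beside Ednrb rose with it, and with their scores as covariates the Agt difference was 0.94 against 2-mo WT (edgeR adjusted p = 0.427). As given there, these scores overlap between HGPS and 2-mo WT only through 2-mo WT mouse 1. Ren1, the gene of renin, had 45 to 123 counts per group and did not pass the test in any comparison.

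Ace encodes the peptidase that makes angiotensin II and breaks down bradykinin. Ace ranged from 529.6 to 576 CPM around a median of 566 in HGPS, from 351 to 590.3 around 469.7 in 2-mo WT, and from 441 to 662 around 523 in 24-mo WT. The HGPS values fell within the range of both WT groups, in a narrow band. The log2 fold change was 0.23 for HGPS against 2-mo WT (95% interval 0.01 to 0.46, edgeR adjusted p = 0.0911) and 0.20 for 24-mo against 2-mo WT (-0.03 to 0.42). Without 2-mo WT mouse 5 Ace was called in HGPS against 2-mo WT (log2 fold change 0.30, edgeR adjusted p = 0.0324).

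Agtr1a encodes the main rodent AT1 receptor for angiotensin II. Agtr1a had 20 to 79 counts per mouse. It ranged from 2.47 to 3.67 CPM around a median of 2.92 in HGPS, from 1.60 to 4.03 around 3.02 in 2-mo WT, and from 1.22 to 1.64 around 1.49 in 24-mo WT. The old aortas were uniformly low and lay below all HGPS aortas, and they met the 2-mo WT range only at its lowest mouse, the one aged 95 d. Agtr1a fell by 49.5% in 24-mo against 2-mo WT (log2 fold change -0.98, SE 0.19, edgeR adjusted p = 0.00183), and without that mouse the log2 fold change was -1.11 (edgeR adjusted p = 0.000170). The fibroblast markers given beside Edn1 fell in the same comparison, and their part was not tested. HGPS against 2-mo WT gave 0.02 (95% interval -0.36 to 0.40). The fibroblast score was 7.30 to 7.69 in HGPS, overlapping with 24-mo WT. Agtr1a was 2.00-fold higher in HGPS than in 24-mo WT (log2 fold change 1.00, SE 0.19, edgeR adjusted p = 0.000263), but with the fat scores as covariates this difference was 0.46 (edgeR adjusted p = 0.183). The brown fat score does not overlap between these 2 groups, so that group and score cannot be told apart there. The fall of Agtr1a in 24-mo against 2-mo WT was still called with the fat scores as covariates (-0.84, edgeR adjusted p = 0.00665). The paralog Agtr1b, with 110 to 179 counts per group, did not pass the test in any comparison, and its log2 fold change between the ages was 0.64 (95% interval 0.00 to 1.28, edgeR adjusted p = 0.197).

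Nos3 encodes endothelial nitric oxide synthase. Nos3 ranged from 24.2 to 39.1 CPM around a median of 34.6 in HGPS, from 21.4 to 50.4 around 40.1 in 2-mo WT, and from 17.2 to 61.8 around 33.8 in 24-mo WT. The ranges overlapped fully, and the old aortas split into 3 low (17.2 to 24.6 CPM) and 3 high (43.1 to 61.8 CPM) mice. The log2 fold change was -0.20 for HGPS against 2-mo WT (95% interval -0.76 to 0.37, edgeR adjusted p = 0.592) and -0.04 for 24-mo against 2-mo WT (-0.60 to 0.52, edgeR adjusted p = 0.948). The endothelium score, the mean log2 CPM of 14 endothelial markers without Nos3, was 5.00 to 5.26 in HGPS, 4.41 to 5.35 in 2-mo WT and 4.50 to 5.24 in 24-mo WT, and none of its markers was at 0 in all mice. The same 3 old aortas with low Nos3 had the 3 lowest scores of their group (4.50, 4.66 and 4.71), and the 2-mo WT aorta with the lowest Nos3 had the lowest score of all (4.41). In these 4 aortas Ece1 was also low, at 117 to 156 CPM, against 179.8 CPM or more in the other 14. With the endothelium score as a covariate, Nos3 differed by -0.39 for HGPS against 2-mo WT (edgeR adjusted p = 0.0563). Against 24-mo WT it differed by -0.44, which passed the test (edgeR adjusted p = 0.0357), and by -0.15 without the covariate (edgeR adjusted p = 0.664). The score of HGPS differed from 2-mo WT by 0.14 as a mean of the markers and by -0.07 as their median, and only the mean was used as a covariate.

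**Figure D4:**
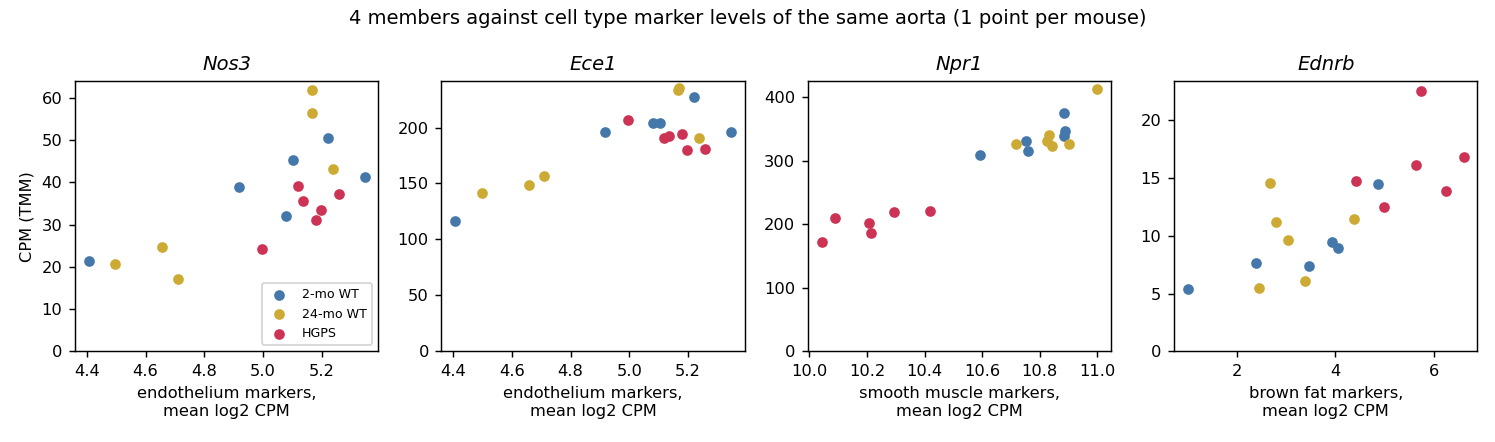
CPM of Nos3 and Ece1 against the endothelium score, of Npr1 against the smooth muscle score, and of Ednrb against the brown fat score, each score being a mean log2 CPM, with 1 point per mouse and CPM axes from 0. The 4 aortas with an endothelium score of 4.71 or less are low in Nos3 and Ece1, and HGPS aortas stand apart from WT aortas on the smooth muscle axis.

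The other nitric oxide synthases were scarce. Nos1 had 39, 29 and 14 counts and Nos2 68, 15 and 46 counts over the 6 mice of HGPS, 2-mo WT and 24-mo WT, and neither was tested. Downstream of nitric oxide, Gucy1a1 and Gucy1b1 of soluble guanylate cyclase fell in HGPS, while Gucy1a2, another alpha subunit gene, did not pass the test. Gucy1a1, an alpha subunit, had a mean of 212 ± 39.8 CPM (SD, n = 6) in HGPS, 422 ± 41.2 in 2-mo WT and 365 ± 74.1 in 24-mo WT. It fell by 0.99 in HGPS against 2-mo WT (SE 0.13, edgeR adjusted p = 1.16e-05). Gucy1b1, the beta subunit, fell by 0.85 (SE 0.11, edgeR adjusted p = 6.37e-06). Prkg1, a cGMP-dependent kinase, fell by 0.69 (SE 0.09, edgeR adjusted p = 1.65e-05). Pde5a, the phosphodiesterase that degrades cGMP, fell by 0.89 in HGPS (SE 0.11, edgeR adjusted p = 5.34e-06) and rose by 0.44 in 24-mo WT (SE 0.11, edgeR adjusted p = 0.0122). Gucy1a1, Gucy1b1 and Prkg1 did not pass the test between the ages of WT mice, with log2 fold changes of -0.21, -0.21 and 0.00. Gucy1a2 was at -0.10 in HGPS against 2-mo WT (edgeR adjusted p = 0.600) and rose by 0.43 in 24-mo WT (edgeR adjusted p = 0.0477). The smooth muscle markers given beside Npr1 fell in HGPS with Gucy1a1, Gucy1b1, Prkg1 and Pde5a as well.

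Of 76 further genes of these pathways, listed apart from the members, 62 were tested. In HGPS against 2-mo WT, 9 rose and 23 fell, so that 51.6% were called beside 43.2% of all genes tested, of which 3340 rose and 3227 fell. The median log2 fold change was -0.11 for the list and 0.00 for all genes. By list, the 23 tested genes of nitric oxide and cGMP held 5 that rose and 10 that fell, the 9 of the renin-angiotensin system 0 and 3, and the 23 other vasoactive receptors and ligands 3 and 8. The 3 endothelin genes held 1 that fell, and the 4 natriuretic peptide genes 1 of each. The natriuretic peptide gene that rose was Nppb, which passed the filter only through HGPS mice and is counted among the 9. Adra1d, an alpha-1 adrenergic receptor, fell by 1.64 and Adra1a, another, rose by 1.54. Htr2a, a serotonin receptor, fell by 1.01, Tbxa2r, the thromboxane receptor, by 1.01, and Ramp1, a subunit of the CGRP receptor, by 0.94. Ddah1, which breaks down an endogenous inhibitor of nitric oxide synthase, rose by 2.56 (edgeR adjusted p = 0.000218). Its HGPS values spread from 2.31 to 24.9 CPM and overlapped with 2-mo WT, at 0.948 to 2.83 CPM. Ddah1 had a mean of 90.2 counts, below the 100 counts set for naming genes, and was named after its value was seen. With the fat scores as covariates 5 of the list rose and 16 fell.

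In 24-mo against 2-mo WT, 7 of the 62 genes rose and 7 fell, so that 22.6% were called beside 11.7% of all genes tested, of which 957 rose and 818 fell. Prkg2, among those that rose, had 31 to 50 counts per 24-mo WT mouse and 0 to 8 per 2-mo WT mouse. Its group difference thus helped it to be tested. The dilator peptide gene Adm fell by 1.10 and its receptor gene Calcrl by 0.49. The angiotensin-degrading aminopeptidase gene Enpep fell by 0.51 and the caveolin gene Cav1 by 0.46, while P2rx1, an ATP-gated channel of smooth muscle, rose by 0.58. Adm, Cav1 and Enpep were also called lower in HGPS against 2-mo WT (log2 fold changes -0.92, -0.31 and -0.235). Calcrl and P2rx1 were not called there (-0.28 and 0.18). In HGPS against 24-mo WT, 10 rose and 25 fell, so that 56.5% were called beside 47.3% of all genes tested, with a median of -0.21 beside -0.01. Of the called genes that averaged 100 counts or more, the log2 fold changes furthest from 0 were those of Htr2a (-1.40), Pde5a (-1.33), Adra1d (-1.32), Adra1a (1.15), Irag1 (-1.12), a substrate of the cGMP kinase, and Tbxa2r (-1.11). Agtr2, the gene of the AT2 receptor, had 47, 18 and 18 counts in HGPS, 2-mo WT and 24-mo WT and was among the 14 genes that were not tested.

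**Figure D5:**
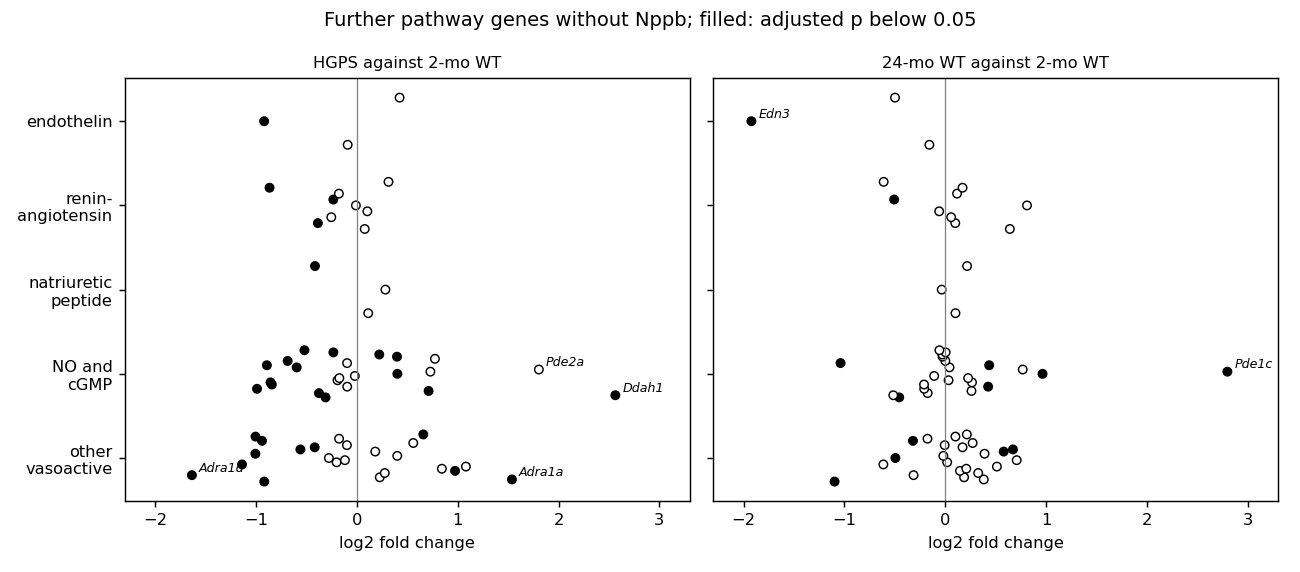
log2 fold change of the tested further pathway genes in the 5 lists for HGPS and for 24-mo WT, each against 2-mo WT, with filled points for an adjusted p below 0.05. Nppb, at 0 counts in WT, is not drawn, and Prkg2 in 24-mo WT, at 3.58, lies beyond the end of the axis. The filled points of the nitric oxide and cGMP list lie mostly below 0 in HGPS (10 of 15).

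Each called member was compared with all tested genes of at least 100 mean counts by Pearson's r of log2 CPM over the 18 mice, which share group and depth differences. Npr1 was most like Ctnna3 (r = 0.979, and 0.878 for deviations from the group means), Pygm (0.976 and 0.768) and Myh11 (0.975 and 0.731). Ednrb was most like Pepd (0.903 and 0.842), Ccl6 (0.898 and 0.793) and Pla2g7 (0.864 and 0.718). Edn1 was closest to Rnf144a (0.865 and 0.726), Gxylt2 (0.842 and 0.734) and Cetn3 (0.838 and 0.712). Agtr1a was closest to Pxylp1 (0.890 and 0.510), Klhl31 (0.885 and 0.639) and Gpx7 (0.881 and 0.518), where much of the likeness lay between the groups. Npr3 followed Meox2 (0.874 and 0.816), Fosb (0.866 and 0.816) and Xpo4 (0.866 and 0.824). Agt, at its few counts, was closest to Tgfb1 (0.826 and 0.731), Nectin1 (0.807 and 0.758) and Spaca6 (0.791 and 0.661).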

How the data were processed

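RNA of 18 descending aortas was sequenced as stranded, paired-end total RNA libraries. The authors quantified transcripts with salmon against GENCODE M23 (GRCm38.p6) and summed them to genes with tximport, and the deposited values are expected counts, which were used after rounding to whole numbers. The strand setting of the counting is not given in the sources used here, and 7 of the 10 members overlap an annotated gene on the other strand. Gene symbols, exons and coordinates came from GENCODE M21 of the same assembly. Groups and replicates were taken from the labels, which show each library as a mouse of its own.

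Counts were analysed with edgeR 4.0.16 in R 4.3.3, with TMM scaling and all 18 mice in a single fit (15 residual degrees of freedom), for the 15210 genes that reached 10 counts in 6 or more mice. The Benjamini-Hochberg adjustment covered all of these genes. Intervals are 95%. A gene at 0 in a group was set to a floor of 3 counts over the group. Marker scores are means of log2 CPM with a prior count of 2, compared by two-sided exact permutation tests (smallest possible p = 0.00216) adjusted over 39 tests. The fit was tested on simulated data. DESeq2 1.42.0, other scalings and filters, a replicate block, marker scores as covariates and leaving out each mouse were alternatives.

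The members, gene lists and tests were chosen with earlier results of these data known. Named are all members, in each comparison the 6 largest changes of called pathway genes with at least 100 mean counts, 16 pathway genes fixed by name (1 is not reported here), and for each called member the 3 genes most like it. Same-numbered mice are different animals, and their deviations from the group means correlated at -0.34 to 0.30 over 18 pairs, with 4 above 0.1. Between HGPS and 2-mo WT these correlations were 0.04 to 0.30. Pairs of unlike number were not computed, so that these values do not decide whether the numbers pair the mice. Replicates of a group differed by more than counting noise, with chi-square per degree of freedom of 7.64 to 93.6 over 45 pairs.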

Additional observations from a re-analysis of the deposited data

Results flagged for a closer look

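In 2 of the 30 combinations of a member and a group, 1 mouse stood apart from the other 5 by Dixon's ratio of gap to range against its 95% critical value, and chance gives about 1 in 20. Ece1 was at 117 CPM in 2-mo WT mouse 2, with the next mouse at 196 CPM and a ratio of 0.716. The same aorta had the lowest endothelium score of all 18 (4.41) and the lowest Nos3 of its group (21.4 CPM). Without it the Ece1 difference of HGPS from 2-mo WT was -0.11 on the log2 scale and remained outside the threshold. Npr1 was at 414 CPM in 24-mo WT mouse 1, with the next mouse at 341 CPM and a ratio of 0.808. This aorta had the highest smooth muscle score of all 18 (11.00). Without it Npr1 in HGPS was still lower than in 24-mo WT, by 0.71.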

How the results depend on the processing

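The 10 calls of members (3, 2 and 5 in the comparisons in the order of the report) kept direction and threshold under DESeq2, RLE and upper-quartile scaling, both other filters where the gene was tested, the fit of 2 groups alone, and the omission of each mouse. Agt was tested under 20 of 28 alternatives in HGPS against 2-mo WT, since filterByExpr, the fit of 2 groups alone and leaving out any of the 6 mice with 10 or more counts put it below the filter. Ednra, outside the threshold, passed under 5 of 28 alternatives in 24-mo against 2-mo WT and 8 of 28 in HGPS against 24-mo WT. The exceptions came with marker scores as covariates. With both fat scores, 1 member was called in HGPS against 2-mo WT and 2 in HGPS against 24-mo WT, among 3495 and 3964 genes in all (349 and 598 at a 1.5-fold change with an adjusted p below 0.001), and 21 pathway genes in HGPS against 2-mo WT. The brown fat score does not overlap between HGPS and 24-mo WT, and both fat scores overlap between HGPS and 2-mo WT only through 2-mo WT mouse 1. With the smooth muscle score 0 members were called in both comparisons with HGPS, among 34 and 148 genes (1 and 5 at the stricter threshold), and the score does not overlap between HGPS and WT. The endothelium score ended the call of Npr3 in HGPS against 24-mo WT. DESeq2 gave 481 genes at the stricter threshold in 24-mo against 2-mo WT, where edgeR gave 304. The main fit did not pair the mice by number, and a replicate block left the members called at 3, 2 and 5, with 6364, 1570 and 6973 genes.

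Differences that changed sign were small or came with a covariate, and the cause was not tested. For HGPS against 2-mo WT, the log2 fold change of Ece1 was 0.0041 with DESeq2 and with RLE, 0.0071 with upper-quartile scaling, 0.0072 without a filter, 0.0085 with the replicate block, 0.1963 with the fat scores and 0.0118 with the smooth muscle score. With the fat scores Edn1 was at 0.0277 and Agtr1a at -0.3763, and with the smooth muscle score Ednrb was at -0.0807 and Agtr1a at -0.6056. For 24-mo against 2-mo WT, Nos3 was at 0.0368 and Npr3 at -0.0167 with the fat scores, Nos3 at 0.0524 and Ece1 at 0.042 with the endothelium score, and Npr1 at -0.0175 with the smooth muscle score. For HGPS against 24-mo WT, Ece1 was at -0.1324 and Ace at -0.0651 with the endothelium score, and Ednrb at -0.3249 with the smooth muscle score.

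On leaving out each mouse, the ranges that crossed 0 were -0.1117 to 0.0488 for Ece1 and -0.109 to 0.1305 for Agtr1a in HGPS against 2-mo WT. In 24-mo against 2-mo WT they were -0.2411 to 0.1099 for Nos3, -0.0364 to 0.3133 for Ednrb, -0.1579 to 0.0176 for Ece1 and -0.0277 to 0.0665 for Npr1. In HGPS against 24-mo WT they were -0.3098 to 0.0407 for Nos3, -0.0231 to 0.1314 for Ece1 and -0.0261 to 0.0956 for Ace. When the markers were summarised by their median, the score difference was -0.0715 for endothelium in HGPS against 2-mo WT, and 0.291 for fibroblasts and 0.5689 for skeletal muscle in HGPS against 24-mo WT. Agtr1a had 20 to 79 counts per mouse and Agt 0 to 29, and the smallest difference that could be detected for these genes was not computed.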

Other observations

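Within the old WT group the ages ran from 609 to 762 d. Npr3 was at 49.7 to 53.5 CPM in the 3 mice aged 748 to 762 d and at 22.9 to 42.8 CPM in the 3 aged 609 to 651 d. Edn1 was at 8.83 to 18.6 CPM in the former and at 6.09 to 10.5 CPM in the latter, and Ednrb at 5.45 to 9.62 and at 11.2 to 14.6 CPM. These splits by labelled age were noticed in the data and were not tested.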
